A study of Homo sapiens with 4 samples.

Results

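The genes described here are 35 genes of glycolysis and of the hypoxia response, taken by name from the 43622 genes of the deposited expression table. They comprise 3 glucose and lactate transporters, 17 glycolytic enzymes, 3 regulators of glycolytic flux, 10 further targets of the hypoxia-inducible factors (HIFs) and the 2 HIF alpha subunits HIF1A and EPAS1. RNA-seq was performed in PC3 cells, an established human prostate adenocarcinoma line, in order to find genes whose response to MLN4924 depends on the tumor suppressor p14ARF. MLN4924 inhibits NEDDylation, the attachment of the ubiquitin-like protein NEDD8 to cullins and other proteins. PC3 cells with no genetic change named in the labels (genotype wt) received DMSO (Ctrl) or 1 µM MLN4924 (MLN), and PC3-shp14ARF cells, which carry a retroviral shRNA against p14ARF and were selected with hygromycin, received DMSO (shARF) or 1 µM MLN4924 (Both). Dose and genotype follow the sample labels, while the series' design text gives 1 mM and calls these cells a knockout, and whether they were a pool or a clone is not stated. RNA was taken after 3 days, and 3 libraries represented each of the 4 conditions. No control hairpin is named for the Ctrl and MLN cells, so silencing of p14ARF and passage through transduction and selection cannot be told apart. Whether the 3 libraries of a condition came from separate cultures is not stated, and p-values then measure the spread between these libraries, which may be technical.

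Glycolysis splits glucose into pyruvate, which lactate dehydrogenase can turn into lactate for export by monocarboxylate transporters. HIF is a dimer of an alpha subunit and ARNT. With oxygen present, prolyl hydroxylases of the EGLN family mark the alpha subunits for the ubiquitin ligase made of VHL, elongins B and C, the cullin CUL2 and RBX1, and CUL2 has to carry NEDD8 to be fully active. When the alpha subunits escape destruction, the dimer binds hypoxia-response elements and raises most genes of glycolysis as well as genes of pH control, angiogenesis and mitophagy. Transcript levels say nothing of the stability of the HIF proteins, which RNA-seq does not measure.

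The letters that HIF recognises were looked up in the promoters, since the genes were chosen as glycolysis genes and HIF targets. The core was searched as ACGTG and GCGTG on both strands, so that it reads CACGT or CACGC where it lies on the other strand, in RefSeq windows from 250 bases before to 50 bases after each start (GRCh38.p14). The palindrome CACGTG carries the core on both strands, was counted as 1 match and is also an E-box, the letters bound by MYC-type factors. Windows were at hand for 32 of the 35 genes, and for SLC2A3, VEGFA and NDRG1 none was used. Of their 60 windows 41 held a core (68.3%), against 48.4% of all 35116 windows. The share was 62.2% over the 37 windows of the glycolytic enzymes and 88.9% over the 9 windows of the other HIF targets. Counted by gene, with any window sufficing, the order was the opposite, 16 of 17 enzymes (94.1%) and 7 of 8 other HIF targets (87.5%) beside 52.4% of 27305 genes, and a gene with more starts has more windows to hold a core. These counts were not matched for base composition. The 5 windows below are those of a pair of enzymes and of CA9, which fell with MLN4924 in both kinds of cells, of ADM, which rose in both, and of ANKRD37, which passed the test for a drug effect only in PC3-shp14ARF cells. Capitals mark the cores on either strand, and all 5 genes lie on the plus strand. For LDHA, which has several starts, the window with the lowest coordinate is given.
PGK1, chrX:78103998-78104297: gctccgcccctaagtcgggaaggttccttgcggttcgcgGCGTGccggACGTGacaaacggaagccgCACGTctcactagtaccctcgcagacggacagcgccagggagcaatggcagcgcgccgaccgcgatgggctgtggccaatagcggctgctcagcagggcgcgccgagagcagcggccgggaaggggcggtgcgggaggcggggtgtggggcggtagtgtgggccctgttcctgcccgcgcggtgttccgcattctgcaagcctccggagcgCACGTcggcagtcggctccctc
LDHA, chr11:18394313-18394612: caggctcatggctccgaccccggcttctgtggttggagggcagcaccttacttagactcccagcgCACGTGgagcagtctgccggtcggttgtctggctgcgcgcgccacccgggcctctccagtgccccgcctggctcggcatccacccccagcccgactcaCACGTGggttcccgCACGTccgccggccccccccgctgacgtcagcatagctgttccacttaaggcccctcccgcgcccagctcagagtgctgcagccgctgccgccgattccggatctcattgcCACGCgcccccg
CA9, chr9:35673678-35673977: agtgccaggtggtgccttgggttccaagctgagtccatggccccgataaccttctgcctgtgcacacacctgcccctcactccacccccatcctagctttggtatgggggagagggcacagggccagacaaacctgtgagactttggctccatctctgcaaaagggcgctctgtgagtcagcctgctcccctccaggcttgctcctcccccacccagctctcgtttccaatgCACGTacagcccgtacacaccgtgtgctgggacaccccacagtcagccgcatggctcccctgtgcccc
ADM, chr11:10304823-10305122: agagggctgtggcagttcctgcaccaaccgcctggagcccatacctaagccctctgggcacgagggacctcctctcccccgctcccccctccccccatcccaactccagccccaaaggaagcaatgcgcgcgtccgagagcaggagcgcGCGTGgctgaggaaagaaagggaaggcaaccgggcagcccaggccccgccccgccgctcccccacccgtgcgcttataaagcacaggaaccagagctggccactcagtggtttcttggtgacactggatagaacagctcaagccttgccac
ANKRD37, chr4:185396591-185396890: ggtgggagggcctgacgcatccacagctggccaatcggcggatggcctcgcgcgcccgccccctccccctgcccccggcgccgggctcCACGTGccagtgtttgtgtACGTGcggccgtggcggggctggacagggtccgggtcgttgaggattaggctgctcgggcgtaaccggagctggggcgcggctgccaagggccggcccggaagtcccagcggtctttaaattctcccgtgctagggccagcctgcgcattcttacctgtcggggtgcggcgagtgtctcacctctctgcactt
The PGK1 and LDHA windows held 4 cores each, and 2 of those in LDHA lay in the palindrome CACGTG. CA9 and ADM had 1 core each. Genes that fell and the gene that rose thus both had a core in these windows, and a match of letters does not say that a factor binds there.

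Values are TPM, transcript abundances scaled for gene length and to the same total in every library, so a level is a share of the RNA and carries no read depth. The number of genes above 1 TPM was 14055 to 14798 per library, and libraries of a condition correlated at 0.975 to 0.980 with each other and at no more than 0.959 with other conditions. CDKN2A, the gene of p14ARF and p16INK4a, measured 177 to 190 TPM in Ctrl and 58.2 to 60.9 in shARF, and with the drug 100 to 133 and 41.2 to 54.0 TPM, so the hairpin cells had the lower level with and without the drug. The epithelial keratins KRT8 and KRT18 were present in every library (77.7 to 154 and 125 to 478 TPM), whereas the prostate markers KLK3 and FOLH1 were listed at 0 in all of them. The leukocyte marker PTPRC did not exceed 0.322 TPM and the basal keratin KRT5 did not exceed 0.0734 TPM. Over all genes tested 29.4% fell and 32.2% rose in MLN vs Ctrl, and 32.8% fell and 28.3% rose in Both vs shARF. Of 16 cell type markers 11 could be tested, and 7 fell and 3 rose in the former and 8 fell and 3 rose in the latter. Among them VIM fell from 815 ± 36 to 342 ± 28 TPM in MLN vs Ctrl, EPCAM from 48.6 ± 4.1 to 28.4 ± 3.1 TPM and the endothelial marker PECAM1 from a range of 10.9 to 12.4 TPM to 0.456 to 0.678 TPM, and the collagen gene COL1A1 rose from 7.27 ± 0.86 to 18.2 ± 1.4 TPM. Their part in the values below was not tested. In bulk RNA, fewer cells of a type and less RNA per cell cannot be told apart.

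MLN4924 lowered most of these genes in both kinds of cells. In MLN vs Ctrl 22 members fell and 2 rose of the 34 that could be tested (limma on log2(TPM + 0.1), adjusted p below 0.05 over 19932 genes), while 29.4% of all genes tested fell and 32.2% rose. In Both vs shARF 28 fell and 4 rose, while 32.8% of all genes tested fell and 28.3% rose. Falls beyond a log2 fold change of −1 were found for 9 members in MLN vs Ctrl, where 12.4% of all genes passed that size, and for 17 in Both vs shARF, where 13.4% did. ADM was the member that rose beyond a log2 fold change of 1 in each comparison, a size that 15.6% and 13.0% of all genes passed. The median log2 fold change over the members was −0.54 in MLN vs Ctrl, beside 0.05 for all genes tested, and −0.91 in Both vs shARF, beside −0.04. The heat map of all 12 libraries shows most enzyme rows turning blue in the MLN and Both columns. The HK1 row lies above Ctrl in both, and the MLN means of HK2, ALDOC, PGAM1 and ENO2 are not below Ctrl.

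**Figure D1:**
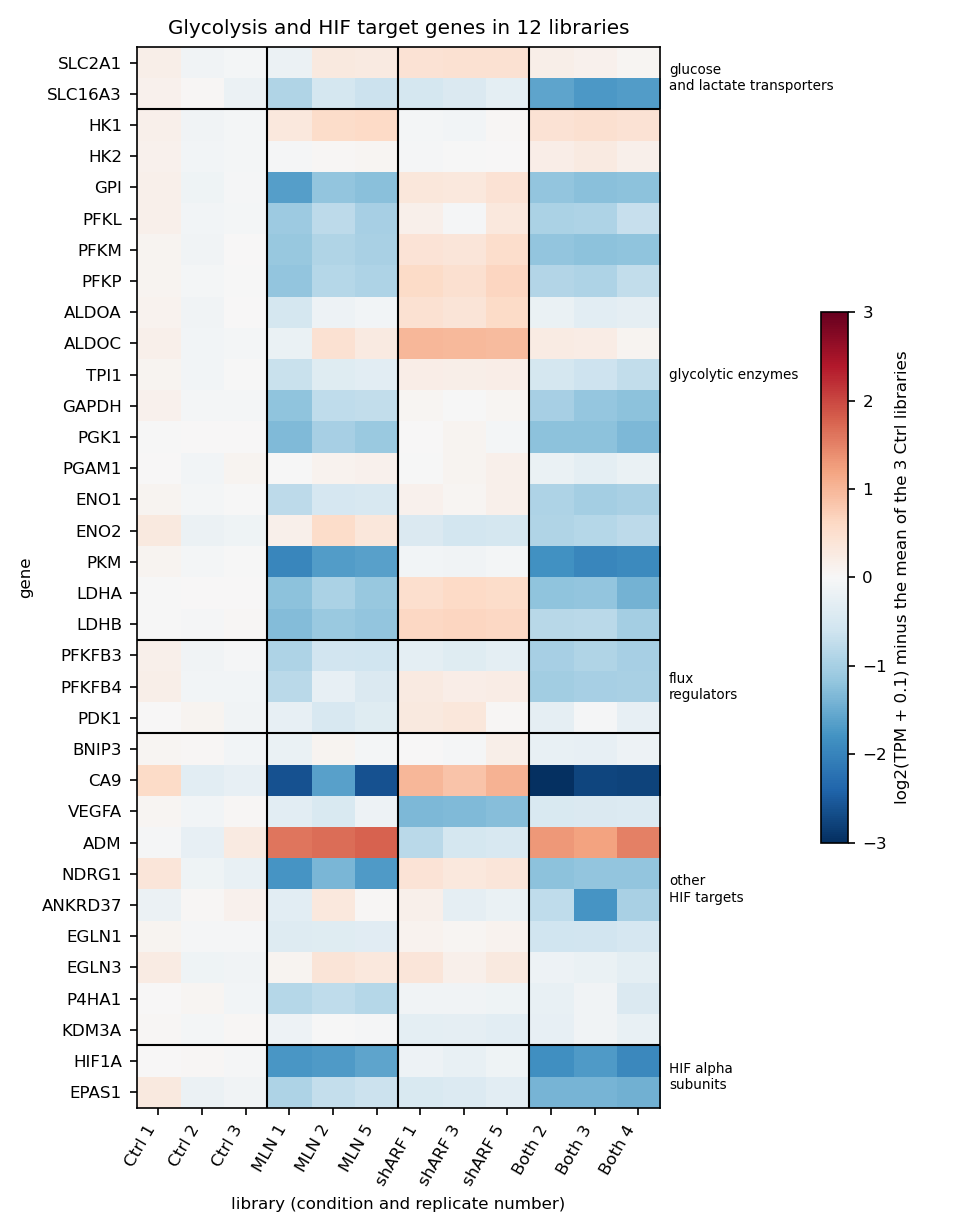
Level of each of the 34 tested genes (rows, by class) in each of the 12 libraries (columns), as log2(TPM + 0.1) minus the mean of the 3 Ctrl libraries, with the color scale ending at −3 and 3. HIF1A, PKM and CA9 are low in all MLN and Both libraries and ADM is high in them, and MLN 1 is the lowest MLN library in all 17 enzyme rows.

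Both HIF alpha subunits fell at the transcript level. HIF1A, the broadly expressed subunit (chr14:61695513-61748259, plus strand, GENCODE annotation of GRCh38), was at 425, 430 and 409 TPM in the Ctrl libraries and at 125, 129 and 140 TPM in MLN. It was at 379, 361 and 385 TPM in shARF and at 118, 129 and 109 TPM in Both. All 6 treated libraries lay far below the 6 vehicle libraries, and the log2 fold changes were −1.68 ± 0.058 in MLN vs Ctrl (SE, n = 3 per group, adjusted p = 7.8e-06 in limma) and −1.66 ± 0.069 in Both vs shARF (adjusted p = 1.17e-05). The difference between these responses was 0.02 ± 0.095 on the log2 scale (adjusted p = 0.889). EPAS1, which encodes HIF-2 alpha, was at 37.0, 26.3 and 27.6 TPM in Ctrl and at 15.8, 18.3 and 19.0 TPM in MLN. In PC3-shp14ARF cells it stood at 21.9, 22.5 and 24.2 TPM with DMSO and at 11.3, 11.4 and 10.9 TPM with MLN4924. These ranges did not overlap within either kind of cell, and the log2 fold changes were −0.76 (adjusted p = 0.00489) and −1.02 (adjusted p = 2.72e-05).

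Transcripts of the partners and controllers of HIF moved in both directions. ARNT, the common partner, was at 32.7 ± 2.0 TPM in Ctrl and 34.98 ± 4.14 TPM in MLN (mean ± SD, n = 3, adjusted p = 0.451), and at 34.7 ± 1.3 and 31.3 ± 1.5 TPM in shARF and Both (log2 fold change −0.15, adjusted p = 0.0471). ARNT2, a related partner, rose from 0.178 ± 0.055 to 3.87 ± 0.70 TPM in MLN vs Ctrl and from 0.0202 ± 0.0203 to 0.668 ± 0.074 TPM in Both vs shARF. VHL, the substrate receptor of the ligase, was at 72.6 ± 3.5 TPM in Ctrl and 65.9 ± 1.8 in MLN (adjusted p = 0.054), and rose from 59.3 ± 2.5 to 72.9 ± 6.4 TPM in Both vs shARF (adjusted p = 0.0133). The cullin CUL2 had log2 fold changes of 0.01 and 0.10 with the drug, neither past the threshold. HIF1AN, the asparagine hydroxylase that blocks HIF transactivation, rose in both comparisons (0.33 and 0.40), and elongin C (ELOC) rose in both as well (0.70 and 0.73). Elongin B (ELOB) rose in MLN vs Ctrl (0.55) and differed by −0.12 in Both vs shARF (adjusted p = 0.369). CREBBP, a coactivator, fell in both (−0.47 and −0.50). Of the 12 tested genes of this machinery 6 rose and 2 fell in MLN vs Ctrl, and 4 rose and 4 fell in Both vs shARF, with medians of 0.21 and 0.01 beside 0.05 and −0.04 for all genes, of which 32.2% rose and 29.4% fell in the former and 28.3% rose and 32.8% fell in the latter.

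**Figure D2:**
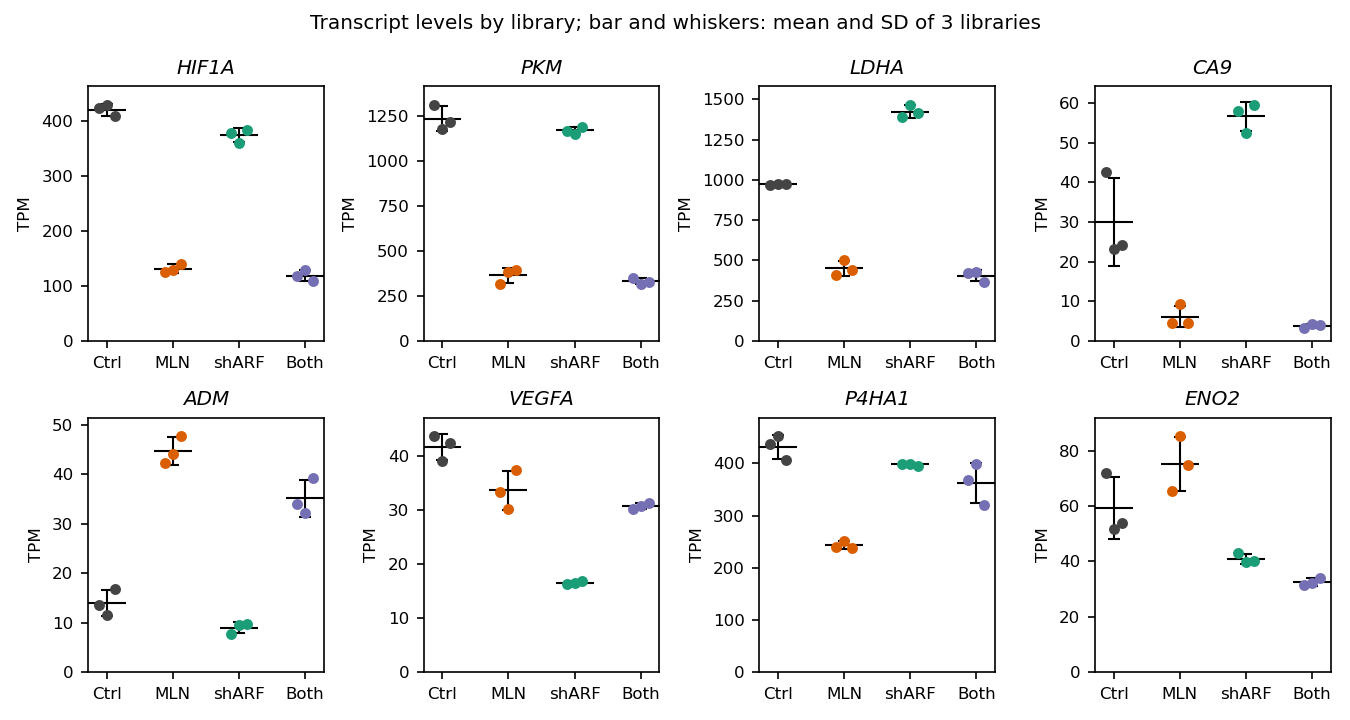
TPM of 8 genes in each library (points), with the mean and SD of the 3 libraries of each condition, all axes from 0. HIF1A, PKM, LDHA and CA9 are lower with MLN4924 in both kinds of cells, ADM is higher in both, and VEGFA lies lowest in the shARF libraries.

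In the upper, ATP-consuming part of glycolysis GPI, the phosphofructokinases and TPI1 fell in both comparisons, and the hexokinases did not fall. HK1, the hexokinase found in most tissues, was at 256, 212 and 220 TPM in Ctrl and at 284, 335 and 344 TPM in MLN, and at 222, 216 and 235 TPM in shARF and 311, 321 and 310 TPM in Both. It was the enzyme that rose in both comparisons, with log2 fold changes of 0.48 (adjusted p = 0.00817) and 0.49 (adjusted p = 0.000204). HK2, the hexokinase that HIF and tumors raise, differed by 0.02 in MLN vs Ctrl (adjusted p = 0.858) and rose by 0.22 in Both vs shARF (adjusted p = 0.00476). GPI, which turns glucose 6-phosphate into fructose 6-phosphate, fell from 150 ± 15 to 58.6 ± 9.6 TPM and from 193 ± 8 to 64.0 ± 1.9 TPM. The 3 isozymes of phosphofructokinase, the committed step, fell together in each comparison. In MLN vs Ctrl the log2 fold changes were −0.96 for PFKL, −1.01 for PFKM and −0.99 for PFKP, and in Both vs shARF they were −1.64 for PFKM and −1.41 for PFKP, with PFKL going from 46.0 ± 5.6 to 22.9 ± 2.2 TPM (adjusted p = 0.00048). Aldolase cleaves the 6-carbon sugar, and its transcripts passed the test in 1 kind of cell: ALDOA was at 740 ± 54 TPM in Ctrl and 629 ± 100 in MLN (adjusted p = 0.159) and fell from 1030 ± 62 to 615 ± 26 TPM in Both vs shARF (adjusted p = 0.000183). ALDOC was at 49.2 ± 4.3 and 56.5 ± 12.3 TPM in Ctrl and MLN (adjusted p = 0.402) and fell from 96.6 ± 1.9 to 55.7 ± 3.1 TPM in Both vs shARF. TPI1, which interconverts the triose phosphates, fell by 0.45 and by 0.82 on the log2 scale, and its call in MLN vs Ctrl was lost without Ctrl 1 (adjusted p up to 0.162 over all alternatives).

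The lower, ATP-producing part held the largest enzyme fold change, that of PKM. PKM, pyruvate kinase (chr15:72199029-72231819, minus strand), was at 1309, 1175 and 1214 TPM in Ctrl and at 317, 383 and 395 TPM in MLN. In PC3-shp14ARF cells it was at 1167, 1147 and 1188 TPM with DMSO and at 350, 317 and 327 TPM with the drug. The treated and vehicle libraries were far apart, and the log2 fold changes were −1.76 ± 0.10 (SE, limma adjusted p = 3.82e-05) and −1.82 ± 0.053 (adjusted p = 3.68e-06). GAPDH, the dehydrogenase that often serves as a reference gene, was at 6550, 5732 and 5756 TPM in Ctrl and 2620, 3537 and 3585 TPM in MLN. It was at 6200, 5937 and 6296 TPM in shARF and 2991, 2687 and 2559 TPM in Both, with no overlap in either kind of cell and log2 fold changes of −0.90 (adjusted p = 0.00447) and −1.16 (adjusted p = 0.000167). PGK1, the first ATP-forming kinase, fell by 1.15 and by 1.27 on the log2 scale, from 1234, 1260 and 1249 TPM in Ctrl to 497, 623 and 577 TPM in MLN and from 1256, 1317 and 1197 TPM in shARF to 528, 535 and 494 TPM in Both. ENO1, the main enolase here, fell from 2459 ± 129 to 1643 ± 184 TPM and from 2654 ± 89 to 1255 ± 36 TPM. PGAM1, the mutase between them, was at 736 ± 42 TPM in Ctrl and 774 ± 39 in MLN (adjusted p = 0.429) and fell from 776 ± 40 to 626 ± 26 TPM in Both vs shARF. ENO2, the neuronal enolase, was at 59.2 ± 11.1 and 75.1 ± 9.8 TPM in Ctrl and MLN (adjusted p = 0.0957) and fell from 41.1 ± 1.8 to 32.6 ± 1.4 TPM in Both vs shARF.

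Both lactate dehydrogenase subunits fell in both kinds of cells. LDHA, the subunit favoring lactate formation, was at 965, 976 and 975 TPM in Ctrl and 411, 503 and 438 TPM in MLN. It was at 1389, 1465 and 1413 TPM in shARF and 424, 425 and 366 TPM in Both. The shARF libraries started highest and the 2 treated groups ended at overlapping levels, with log2 fold changes of −1.11 ± 0.086 (adjusted p = 0.000104) and −1.81 ± 0.073 (adjusted p = 1.06e-05). LDHB fell from 656 ± 16 to 286 ± 18 TPM in MLN vs Ctrl and from 1010 ± 8 to 355 ± 30 TPM in Both vs shARF.

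Of the transporters SLC16A3 fell in both comparisons. SLC16A3 (MCT4), the exporter of lactate from glycolytic cells, was at 119, 111 and 96.3 TPM in Ctrl and 57.9, 75.1 and 69.3 TPM in MLN. With the hairpin it was at 75.8, 80.3 and 88.2 TPM in DMSO and 36.4, 32.7 and 34.1 TPM with MLN4924. The Both libraries were the lowest, and the log2 fold changes were −0.70 (adjusted p = 0.00331) and −1.24 (adjusted p = 3.33e-05). SLC2A1 (GLUT1), the basal glucose transporter, was at 72.9 ± 8.1 TPM in Ctrl and 80.1 ± 13.8 in MLN (adjusted p = 0.492), and fell from 99.1 ± 0.4 to 78.7 ± 3.2 TPM in Both vs shARF (adjusted p = 0.000659). SLC2A3 (GLUT3), a glucose transporter of high affinity, was close to absent, at no more than 0.0254 TPM in Ctrl, 0.171 in MLN and 0.197 in Both and listed at 0 in all shARF libraries. Its mean lay below the filter of 0.1 TPM, so it was not tested.

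All 3 regulators of flux fell in both comparisons. PFKFB3 and PFKFB4 make and remove fructose 2,6-bisphosphate, the activator of phosphofructokinase. PFKFB3 fell by 0.70 and by 0.65 on the log2 scale, and PFKFB4 fell by 0.50 and by 1.24. PDK1, the kinase that closes the entry of pyruvate into mitochondria, fell from 4.96 ± 0.34 to 3.83 ± 0.34 TPM (adjusted p = 0.0262) and from 5.81 ± 0.67 to 4.36 ± 0.40 TPM (adjusted p = 0.029). The calls of PFKFB4 and PDK1 in MLN vs Ctrl were lost without any of several libraries, PFKFB4 without Ctrl 1, 2 or 3, MLN 1 or MLN 5 and PDK1 without Ctrl 1, Ctrl 2, MLN 2 or MLN 5, with adjusted p of up to 0.207 and 0.193 over all alternatives. In Both vs shARF the call of PDK1 was lost without shARF 1, shARF 3, Both 2 or Both 4 (adjusted p up to 0.0951 over all alternatives).

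The other HIF targets moved in both directions. CA9, the cell-surface carbonic anhydrase that is a standard marker of HIF activity, was at 42.8, 23.1 and 24.3 TPM in Ctrl and 4.59, 9.27 and 4.61 TPM in MLN. It was at 58.1, 52.6 and 59.6 TPM in shARF and 3.14, 4.18 and 4.11 TPM in Both. Treated and vehicle libraries did not overlap, and the log2 fold changes of −2.29 ± 0.36 (adjusted p = 0.00205) and −3.87 ± 0.12 (adjusted p = 5.08e-06) were the lowest of all members. ADM, which encodes the vasodilator adrenomedullin, went the opposite way. Its levels were 13.6, 11.6 and 16.8 TPM in Ctrl and 42.2, 44.1 and 47.7 TPM in MLN, and with the hairpin 7.82, 9.49 and 9.81 TPM in DMSO and 34.1, 32.1 and 39.3 TPM with the drug. Its log2 fold changes were 1.69 ± 0.14 (adjusted p = 0.000135) and 1.95 ± 0.12 (adjusted p = 3.92e-05), and every treated library exceeded every vehicle library. NDRG1, a stress-response gene, fell from 215 ± 49 to 69.6 ± 10.2 TPM and from 272 ± 8 to 92.5 ± 1.6 TPM.

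The responses of VEGFA and P4HA1 differed between the kinds of cells, as did those of CA9, ANKRD37, EGLN1 and EGLN3 by the test given further below. VEGFA, the angiogenic growth factor, was at 43.7, 39.0 and 42.4 TPM in Ctrl and 33.3, 30.3 and 37.5 TPM in MLN, a log2 fold change of −0.31 (adjusted p = 0.0248) that was lost without Ctrl 1, Ctrl 3, MLN 1 or MLN 2 (adjusted p up to 0.179 over all alternatives). In shARF it was at 16.3, 16.6 and 17.0 TPM and in Both at 30.3, 30.8 and 31.4 TPM, a rise of 0.89 ± 0.039 (adjusted p = 1.39e-05). P4HA1, the collagen prolyl hydroxylase subunit, was at 438, 452 and 407 TPM in Ctrl and 240, 252 and 238 TPM in MLN. In PC3-shp14ARF cells it was at 399, 400 and 396 TPM with DMSO and 367, 398 and 321 TPM with the drug, so that these ranges overlapped. In MLN vs Ctrl it fell by 0.83 (log2, adjusted p = 7.69e-05), and the value in Both vs shARF was −0.14 (adjusted p = 0.184).

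Of the remaining targets EGLN1 fell in both comparisons, and the other 4 passed no test in MLN vs Ctrl. EGLN1, the main HIF prolyl hydroxylase, fell from 26.5 ± 1.3 to 20.6 ± 0.4 TPM and from 28.3 ± 0.5 to 18.01 ± 0.47 TPM. EGLN3, its strongly inducible relative, was at 8.53 ± 1.27 and 10.2 ± 1.1 TPM in Ctrl and MLN (adjusted p = 0.145) and fell from 10.2 ± 0.8 to 7.27 ± 0.31 TPM in Both vs shARF. ANKRD37, a small HIF target of poorly known role, was at 3.44 ± 0.38 and 3.52 ± 0.78 TPM in Ctrl and MLN (adjusted p = 0.962) and fell from 3.21 ± 0.55 to 1.54 ± 0.53 TPM in Both vs shARF (adjusted p = 0.021), a call lost without shARF 1 or shARF 5 (adjusted p up to 0.0766 over all alternatives). BNIP3, a mitophagy receptor, had log2 fold changes of −0.06 (adjusted p = 0.586) and −0.27 (adjusted p = 0.0132), the latter not past the threshold with median-of-ratios scaling (−0.17, adjusted p = 0.061). KDM3A, a histone demethylase, had values of −0.06 and 0.11 and passed the threshold in neither.

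The glycolytic enzymes were set against the other HIF targets. In MLN vs Ctrl 11 of the 17 enzymes fell and 1 rose, with a median log2 fold change of −0.90, and 5 of the 10 other HIF targets fell and 1 rose, with a median of −0.19. In Both vs shARF 15 enzymes fell and 2 rose (median −1.08), and 6 other HIF targets fell and 2 rose (median −0.37). The range was wider among the other HIF targets, from −2.29 to 1.69 in MLN vs Ctrl, than among the enzymes, from −1.76 to 0.48. The medians are descriptions of these lists, and the difference between the lists was not tested. The enzymes' median in MLN vs Ctrl depended on MLN 1, which was the lowest MLN library for all 17 enzymes, while Ctrl 1 was the highest Ctrl library for 13. Without MLN 1 it was −0.75, and without both MLN 1 and Ctrl 1, a setting chosen after seeing the data, it was −0.69 with 11 enzymes lower. Taken as a share of all transcripts, the 17 enzymes made up 1.60 ± 0.08% with DMSO and 0.952 ± 0.120% with MLN4924 in PC3 cells, and 1.77 ± 0.03% and 0.828 ± 0.039% in PC3-shp14ARF cells (mean ± SD, n = 3). The 10 other HIF targets made up 0.0850 ± 0.0075%, 0.0508 ± 0.0027%, 0.0873 ± 0.0014% and 0.0620 ± 0.0033%, with P4HA1 and NDRG1 as the most abundant. Among the enzymes GAPDH was the most abundant, at 6013 TPM in Ctrl and 3247 TPM in MLN. In PC3 cells the summed shares of both classes fell by a similar proportion, unlike their medians.

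**Figure D3:**
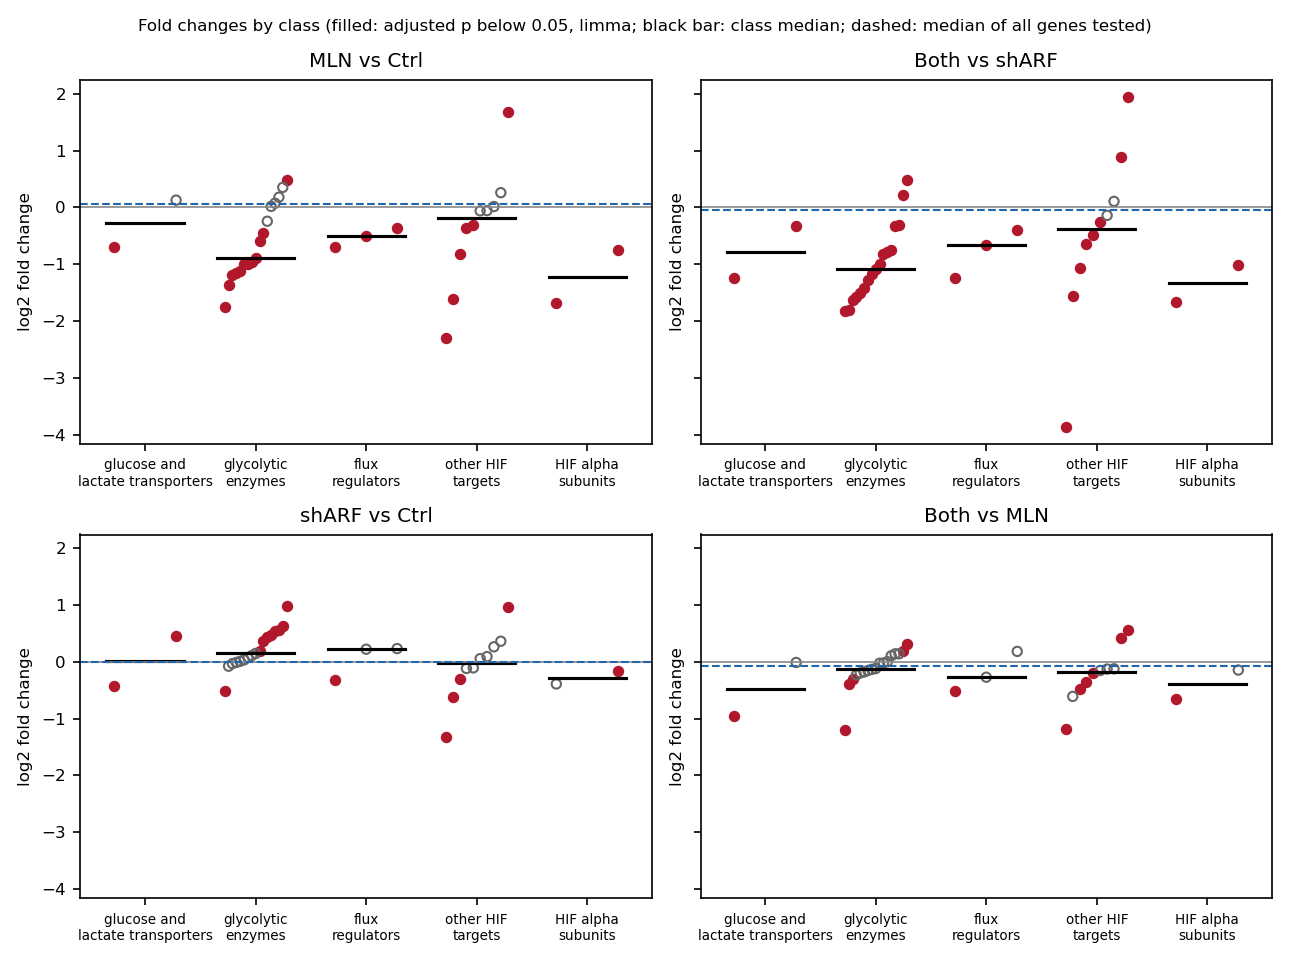
Log2 fold change of each tested gene by class in the 4 pairwise comparisons; filled points passed an adjusted p below 0.05 in limma, black bars are class medians and the dashed line is the median of all genes tested. The median of the glycolytic enzymes lies at −0.90 in MLN vs Ctrl and −1.08 in Both vs shARF, below that of the other HIF targets at −0.19 and −0.37.

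Without the drug, cells with the hairpin had more transcript of several enzymes. In shARF vs Ctrl 10 members rose and 7 fell, where 21.0% of all genes tested rose and 20.4% fell. Beyond a log2 fold change of 1 in size, 1 member fell, beside 6.60% of all genes, and 0 rose, beside 3.87%, with 17 calls at an adjusted p regardless of size. Of the 17 enzymes 8 rose and 1 fell, with a median of 0.15 beside 0 for all genes. ALDOC rose from 54.2, 46.4 and 47.1 TPM in Ctrl to 98.8, 96.1 and 95.1 TPM in shARF, or 0.97 ± 0.066 in log2 fold change (adjusted p = 0.000421 in limma). LDHB rose by 0.62, PFKP by 0.56, LDHA by 0.55, ALDOA by 0.48, PFKM by 0.44, GPI by 0.36 and TPI1 by 0.19. ENO2 was the enzyme that fell, by 0.51 (adjusted p = 0.0341). GAPDH, PGK1 and PKM, in contrast, had log2 fold changes of 0.03, 0.01 and −0.08, none past the threshold, and the same was true of HK1 (−0.03), HK2 (−0.01), PFKL (0.15), PGAM1 (0.08) and ENO1 (0.11).

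Among the other classes, SLC2A1 rose by 0.45 and SLC16A3 fell by 0.42 in shARF vs Ctrl, and PFKFB3 fell by 0.32 while PFKFB4 and PDK1 had values of 0.23 and 0.22 that did not pass. VEGFA fell by 1.32 ± 0.050 (adjusted p = 8.57e-05), with no overlap between the libraries of the groups. CA9 rose by 0.97 (adjusted p = 0.0321), ADM fell by 0.61 (adjusted p = 0.0352) and KDM3A fell by 0.29 (adjusted p = 0.0043). HIF1A fell by 0.17 (adjusted p = 0.0184), and EPAS1 had a value of −0.39 (adjusted p = 0.0808). BNIP3, NDRG1, ANKRD37, EGLN1, EGLN3 and P4HA1 lay between −0.12 and 0.36 with no call. The number of members called in shARF vs Ctrl fell from 17 to 9 without shARF 1 and to 11 without shARF 3 or without shARF 5. The calls of CA9 and ADM were each lost without any single shARF library, that of CA9 also without Ctrl 2 or Ctrl 3 and that of ADM without Ctrl 1 or Ctrl 3, with adjusted p up to 0.177 and 0.0996 over all alternatives. The calls of SLC16A3 (without Ctrl 1, Ctrl 2, shARF 1 or shARF 3), GPI (without Ctrl 3, shARF 1 or shARF 5), HIF1A (without Ctrl 1, Ctrl 2 or shARF 1), ENO2 and PFKFB3 (without Ctrl 3 or any single shARF library) and TPI1 (without Ctrl 2, Ctrl 3 or any single shARF library) were lost as well, with adjusted p of up to 0.259 for TPI1 over all alternatives.

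The drug response was then compared between the 2 kinds of cells. MLN vs Ctrl and Both vs shARF share no library. Of the 22 members that fell in the former and the 28 that fell in the latter, 20 fell in both, which is 90.9% and 71.4% of the lists. Over all genes tested, 4538 fell in both, which is 77.4% of the 5863 and 69.5% of the 6530 that fell. HK1 and ADM rose in both. The interaction, the log2 fold change of Both vs shARF minus that of MLN vs Ctrl fitted to all 12 libraries, tests the difference itself. It passed the threshold with a negative sign for 16 members and with a positive sign for 2, while 17.1% of all genes were negative and 11.2% positive. With median-of-ratios scaling in place of plain TPM, 11 members were negative and 4 positive, and 3216 of 6006 called genes were positive in place of 2229 of 5645.

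Negative values, a lower log2 fold change with the drug in PC3-shp14ARF cells, were found for 9 of the 17 enzymes. The median of the 17 was −0.37 beside −0.09 for all genes. For ALDOC, PGAM1 and ENO2 the MLN mean lay above Ctrl, without a call, and the transcript fell in Both vs shARF. The value was −0.70 ± 0.12 for LDHA (adjusted p = 0.00091), −0.97 ± 0.18 for ALDOC (adjusted p = 0.00189) and −0.63 ± 0.10 for PFKM (adjusted p = 0.000854). These 3 enzymes had higher levels in shARF than in Ctrl, and their MLN and Both means were 451 and 405 TPM for LDHA, 56.5 and 55.7 TPM for ALDOC and 39.9 and 34.8 TPM for PFKM. PKM, GAPDH, PGK1, GPI, PFKL and TPI1, which fell in both comparisons, had interactions between −0.37 and −0.04 that did not pass. Outside the enzymes CA9 had −1.58 (adjusted p = 0.00904), ANKRD37 −1.07 (adjusted p = 0.0376) and PFKFB4 −0.74 (adjusted p = 0.00692). The calls of SLC2A1, PFKP, ALDOA, LDHB and ANKRD37 were each lost without any of 7 or more single libraries, with adjusted p of up to 0.307 for SLC2A1 over all alternatives. The positive values belonged to VEGFA (1.20 ± 0.10, adjusted p = 8.68e-06) and P4HA1 (0.68 ± 0.11, adjusted p = 0.000553). The plot of both responses shows these genes above the diagonal and most enzymes at or below it.

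**Figure D4:**
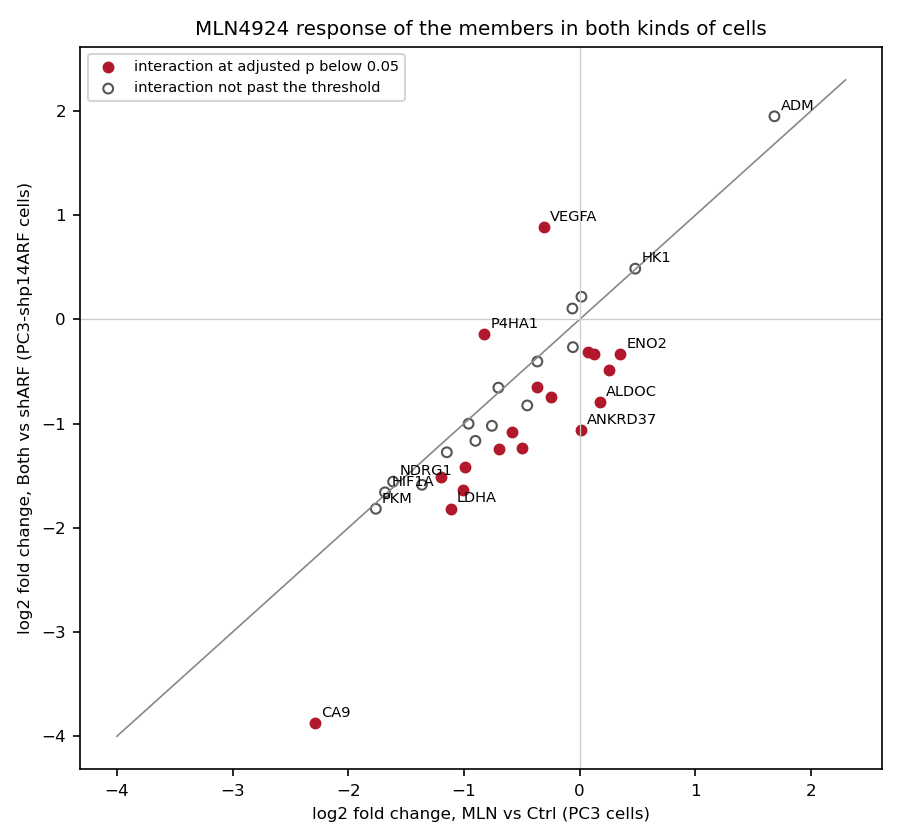
Log2 fold change with MLN4924 in PC3 cells (horizontal) against that in PC3-shp14ARF cells (vertical) for the 34 tested genes, with the diagonal of equal response. Filled points passed the test of the interaction; VEGFA (1.20) and P4HA1 (0.68) lie above the diagonal, and CA9 (−1.58), ANKRD37 (−1.07) and ALDOC (−0.97) lie below it.

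The 2 kinds of cells were also compared under the drug. In Both vs MLN 10 members were lower and 4 higher, where 20.6% of all genes tested were lower and 11.8% higher, and 3 of the 17 enzymes were lower and 2 higher, with a median of −0.12 beside −0.08 for all genes. ENO2 was lower by 1.20 on the log2 scale, a value of −1.20 ± 0.10 (adjusted p = 0.00102), with 65.4, 85.1 and 74.7 TPM in MLN and 31.4, 32.1 and 34.1 TPM in Both. SLC16A3 (−0.96), EPAS1 (−0.65) and P4HA1 (0.57) also passed, and these 4 kept their call under every alternative tried. The other calls were ANKRD37 (−1.18), PFKFB4 (−0.51), EGLN3 (−0.48), ENO1 (−0.38), ADM (−0.35), PGAM1 (−0.31), EGLN1 (−0.19), NDRG1 (0.42), LDHB (0.31) and HK2 (0.19). The count of 14 fell to 5 without MLN 2, to 4 without MLN 5, to 6 without Both 2, to 4 without Both 3 and to 8 without Both 4. With median-of-ratios scaling 5 members were lower and 4 higher, and 3663 of 7129 called genes were higher in place of 2352 of 6464.

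The makeup of steps with several isozymes was described as shares of summed TPM. TPM is scaled by length, so levels of genes can be set side by side. HK2 made up 29.6 ± 0.5% of the hexokinase transcripts of HK1 and HK2 in Ctrl and 23.4 ± 1.2% in MLN, and 29.9 ± 0.8% against 26.2 ± 0.5% in PC3-shp14ARF cells (mean ± SD, n = 3). Treated ranges lay below vehicle ranges in both kinds of cells. HKDC1, described below, is not counted in this pair, though at 360 TPM in MLN and 352 TPM in Both it exceeded HK1. ENO2 held a larger share of the enolases ENO1 and ENO2 in treated cells, 4.37 ± 0.30% in MLN against 2.34 ± 0.30% in Ctrl and 2.53 ± 0.13% in Both against 1.52 ± 0.05% in shARF, with no overlap between drug and vehicle of a kind of cell. LDHB made up 40.3 ± 0.6% and 38.9 ± 1.2% of lactate dehydrogenase in Ctrl and MLN, ranges that overlapped at 39.7 to 40.9% and 37.5 to 39.9%, and 41.5 ± 0.6% and 46.7 ± 0.3% in shARF and Both, which did not overlap. PFKFB4 held 36.9 ± 0.7% of the PFKFB3 and PFKFB4 transcripts in Ctrl and 40.2 ± 1.8% in MLN, and 46.1 ± 0.5% in shARF against 36.3 ± 1.1% in Both. EPAS1 made up a larger share of the HIF alpha transcripts with the drug, 6.70% against 11.9% in PC3 cells and 5.75% against 8.64% in PC3-shp14ARF cells. These shares are descriptions with 3 libraries a group, for which an exact permutation test cannot go below 0.10.

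**Figure D5:**
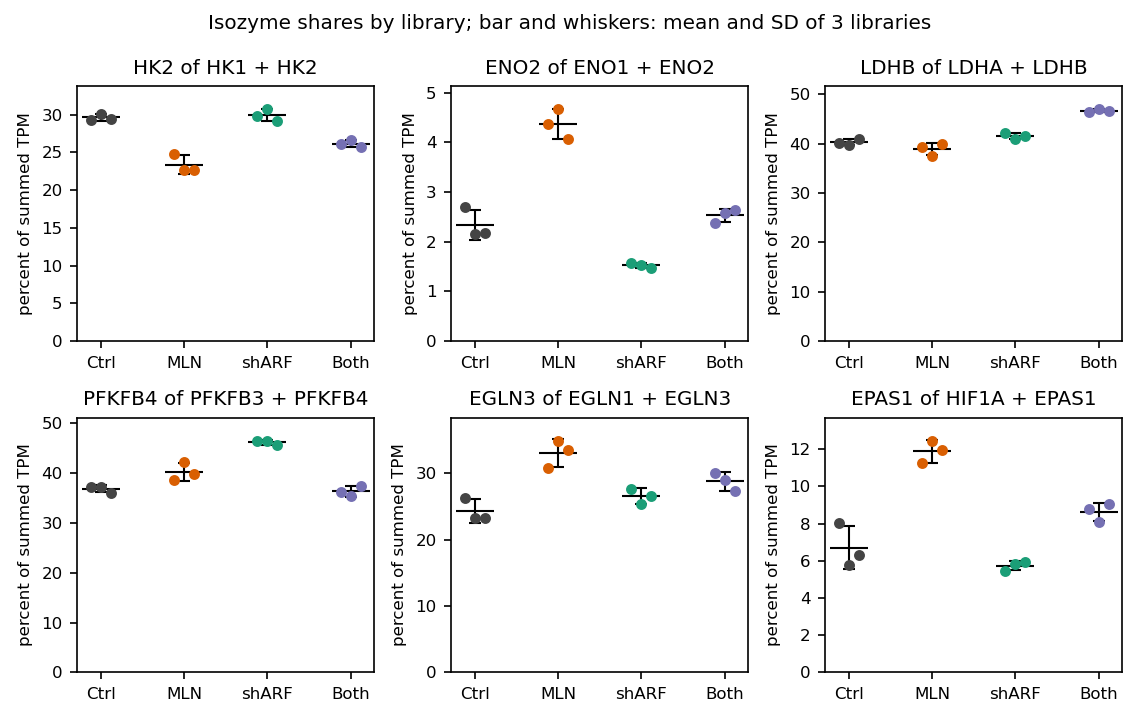
Percent of the summed TPM of an isozyme pair held by the named gene in each library (points), with mean and SD of 3 libraries, all axes from 0. The ENO2 share rises with MLN4924 from 2.34% to 4.37% and from 1.52% to 2.53%, and the HK2 share falls from 29.6% to 23.4% and from 29.9% to 26.2%. HKDC1 is not counted in the hexokinase pair.

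Genes around the pathway are given by list, to be read beside the 32.2% of all genes tested that rose and the 29.4% that fell in MLN vs Ctrl and the 28.3% and 32.8% in Both vs shARF. Of 19 other isozymes and regulators of glycolysis 11 were expressed enough to be tested, and 7 rose and 2 fell in MLN vs Ctrl while 4 rose and 4 fell in Both vs shARF. HKDC1, a hexokinase-like enzyme, went from 7.68 ± 0.23 TPM to 360 ± 26 in PC3 cells and from 1.16 ± 0.39 to 352 ± 7 in PC3-shp14ARF cells, with log2 fold changes of 5.53 and 8.18 for the drug, and its treated level exceeded the mean of HK1 in both kinds of cells. MYC, a transcription factor that activates many glycolysis genes through E-boxes, fell from 740 ± 55 to 153 ± 12 TPM and from 1183 ± 33 to 264 ± 12 TPM, and it rose by 0.68 in shARF vs Ctrl (adjusted p = 0.00117). Of the 17 enzymes 11 also fell with the drug in both kinds of cells and 8 rose in shARF vs Ctrl. In contrast, GAPDH, PGK1, PKM, ENO1, PFKL, PGAM1, HK1 and HK2 passed no test in shARF vs Ctrl, and ENO2 fell there. HK1 rose with the drug in both kinds of cells and HK2 rose in Both vs shARF. The part of MYC in these values was not tested. ARRDC4 and TXNIP, which limit glucose uptake, rose in MLN vs Ctrl by 1.68 and 0.36 and in shARF vs Ctrl by 2.83 and 0.90. In Both vs shARF ARRDC4 rose by 1.01 and TXNIP fell by 0.37.

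Of 32 further HIF targets 19 fell and 7 rose in MLN vs Ctrl (median −0.41, beside 0.05 for all genes, of which 29.4% fell and 32.2% rose), and 18 fell and 9 rose in Both vs shARF (median −0.32, beside −0.04 for all genes, of which 32.8% fell and 28.3% rose). BHLHE41, a clock-linked repressor, fell from 73.1 ± 4.0 to 7.64 ± 0.46 TPM and from 22.8 ± 0.7 to 2.49 ± 0.20 TPM, and the histone demethylase KDM4B fell from 12.1 ± 1.3 to 2.83 ± 0.14 TPM and from 12.7 ± 0.6 to 3.01 ± 0.22 TPM. Without the drug 16 of the 32 fell and 6 rose in shARF vs Ctrl, where 20.4% of all genes tested fell and 21.0% rose. IGFBP3, a binder of insulin-like growth factors, was at 47.2 ± 1.3 TPM in Ctrl and 1.75 ± 0.21 TPM in shARF, and the hormone gene STC1 at 10.7 ± 0.5 and 1.01 ± 0.15 TPM. Both also fell in MLN vs Ctrl (−1.31 and −1.76), and in Both vs shARF IGFBP3 rose by 1.43 and STC1 had a value of −0.35 that did not pass.

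In the pentose phosphate pathway and the entry of pyruvate into mitochondria 8 of 20 genes rose and 6 fell in MLN vs Ctrl, with 32.2% and 29.4% of all genes, and 6 rose and 12 fell in Both vs shARF, with 28.3% and 32.8% of all genes. FBP1, the gluconeogenic enzyme that opposes phosphofructokinase, rose from 0.735 ± 0.335 to 5.17 ± 0.44 TPM in MLN vs Ctrl and was at 2.70 ± 0.94 and 3.43 ± 0.30 TPM in shARF and Both (adjusted p = 0.22). MPC2, a subunit of the mitochondrial pyruvate carrier, rose by 1.21 and by 0.77 on the log2 scale, while MPC1, the other subunit, named after its values were seen, fell from 29.5 ± 2.5 to 15.9 ± 2.3 TPM and from 49.5 ± 2.6 to 21.9 ± 1.6 TPM. PDP1, the phosphatase that reactivates pyruvate dehydrogenase, rose by 0.93 and by 1.13. PGM1, which links glycogen to glucose 6-phosphate, fell from 109 ± 5 to 40.9 ± 4.7 TPM and from 93.5 ± 5.2 to 35.6 ± 1.2 TPM. TKT, a transketolase, had 93.9 ± 7.9 TPM in Ctrl against 80.2 ± 9.6 in MLN (adjusted p = 0.105) and 170 ± 11 in shARF against 101 ± 2 in Both, a rise of 0.86 in shARF vs Ctrl and a fall of 0.75 in Both vs shARF. EGLN2, a HIF prolyl hydroxylase, rose by 0.70 in MLN vs Ctrl and by 0.40 in shARF vs Ctrl and differed by 0.01 in Both vs shARF (adjusted p = 0.969).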

How the data were processed

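RNA-seq of 4 conditions with 3 libraries each was analysed. In CLC Genomics Workbench the authors removed adapters, aligned the reads to hg38 and quantified genes with an Ensembl annotation of GRCh38. The deposited unit is TPM, so depth is unknown, and reads shared with processed pseudogenes or overlapping genes stand as the authors counted them (strandedness is not given in the sources used here).

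From these TPM, log2(TPM + 0.1) of 19932 genes (mean not below 0.1 TPM) was fitted with limma 3.58.1 (eBayes with trend) in R 4.3.3, each pairwise comparison on the 6 libraries of its groups and the interaction on all 12, and p-values were adjusted by Benjamini-Hochberg across every gene tested. The study used DESeq2 on read counts, which TPM do not allow. Fold changes are on the log2(TPM + 0.1) scale and understate the change of low genes. The fits were tested on simulated data in which far fewer genes changed than were called here, so that check does not cover shifts of this extent.

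The members and lists were chosen with earlier results of these data known. Named are all 35 members, CDKN2A, ARNT, VHL, HIF1AN, EGLN2, CUL2 and, per other list, the 3 called genes with the largest fold change in MLN vs Ctrl and in shARF vs Ctrl (mean of at least 1 TPM); cell type markers were chosen after their values were seen. Alternatives were pseudocounts of 1 and 0.01, filters, median-of-ratios scaling, eBayes without trend, a joint fit, a replicate block and leaving out each library. Promoters are from RefSeq (GRCh38.p14).

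Some cell type markers are not reported here.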

Additional observations from a re-analysis of the deposited data

Results flagged for a closer look

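The response to MLN4924 differed between PC3 and PC3-shp14ARF cells, by the test of the interaction (limma, 12 libraries, adjusted p below 0.05), for 18 members. Of all genes tested 17.1% passed with a negative and 11.2% with a positive value. A negative value on the log2 scale means a lower log2 fold change with the drug in PC3-shp14ARF cells, not a lower level. Among the enzymes the negative values were −0.97 for ALDOC, −0.70 for LDHA, −0.68 for ENO2, −0.63 for PFKM, −0.50 for ALDOA, −0.49 for ENO1, −0.42 for PFKP, −0.38 for PGAM1 and −0.31 for LDHB. Outside the enzymes they were −1.58 for CA9, −1.07 for ANKRD37, −0.74 for EGLN3, −0.74 for PFKFB4, −0.54 for SLC16A3, −0.46 for SLC2A1 and −0.28 for EGLN1. The positive values were 1.20 for VEGFA and 0.68 for P4HA1. PFKM, ALDOC, LDHA, VEGFA and P4HA1 kept their call under every alternative tried, and the other 13 lost it under at least 1, the replicate block among them for each. SLC2A1, with an adjusted p of 0.047, lost it under 15 of its alternatives.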

How the results depend on the processing

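Over all alternatives tried, no call of a member turned its direction. Calls kept under every alternative were 29 of 32 in Both vs shARF, 11 of 24 in MLN vs Ctrl, 4 of 14 in Both vs MLN, 5 of 18 for the interaction and 0 of 17 in shARF vs Ctrl. The replicate block accounts for the 0, since without it single libraries and settings lose only some of these calls. It also lowered the counts of MLN vs Ctrl and of the interaction. In MLN vs Ctrl the calls of GAPDH, CA9 and ENO1, among others, were lost under the block alone. Both vs shARF and Both vs MLN had no block among their alternatives, so the counts rest on unlike sets.

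What the replicate numbers mean is not stated. Libraries of the same number had deviations from their group means that correlated between −0.0457 and 0.00722, with at most 2 shared numbers per comparison. Pairs of unlike numbers were not computed, so whether a number marks shared handling cannot be told. With the number as a block, which leaves 1 residual degree of freedom in a pairwise fit, 11 members were called in MLN vs Ctrl, 5 for the interaction and 0 in shARF vs Ctrl, where limma gave 12 members and 7757 genes at an unadjusted p under 0.05. No block could be fitted for Both vs shARF and Both vs MLN, which share 1 number each.

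In Both vs MLN 8 members were called with no filter on low values, 9 with median-of-ratios scaling and 8 without the eBayes trend. Over all genes 5559, 7129 and 5719 were called under these settings, beside 6464 in the main fit. The cause was not tested. The same scaling moved the enzymes' median to −0.98 in Both vs shARF and to −0.27 for the interaction, and that of the other HIF targets for the interaction from −0.08 to 0.02.

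Leaving out 1 library gave 9 to 19 members in shARF vs Ctrl, 4 to 11 in Both vs MLN and an enzyme median of −0.97 to −0.75 in MLN vs Ctrl. Without both Ctrl 1 and MLN 1, added after seeing the data, this median was −0.69 and 25 members were called, 6 of them higher.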
